A study of Mus musculus with 6 samples.

Results

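DNA methylation writers and erasers were examined in mouse natural regulatory T cells (nTreg cells), as 7 genes chosen by name: Dnmt1, Uhrf1, Dnmt3a, Dnmt3b, Tet1, Tet2 and Tet3 (DNMT1, UHRF1, DNMT3A, DNMT3B, TET1, TET2 and TET3 in the capitals of the files). All 7 are among the 24982 gene symbols of the count table and passed the filter on low counts, which left 11772 genes. The cells were CD4+CD25+CD127lo T cells sorted from spleens of B6.129 mice aged 8 to 10 weeks. The KO group (3 libraries) carried the genotype Srsf1-flox/flox dLck.Cre, in which Cre recombinase from the distal Lck promoter removes the splicing factor Srsf1 in T cells, and the WT group (3 libraries) was wild type. Both groups had 72 h of stimulation by antibodies against CD3 and CD28 (2 µg/ml each) plus interleukin-2 (10 ng/ml). The source field of the labels names effector CD4 T cells, against nTreg cells in the titles and protocols.

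Methyl groups on cytosines of CpG dinucleotides are written by the Dnmt enzymes and passed on at each DNA replication. Dnmt1 copies the pattern onto the new strand, and Uhrf1 brings it there by binding DNA methylated on one strand. Dnmt3a and Dnmt3b methylate new sites, while the dioxygenases Tet1, Tet2 and Tet3 oxidise the methyl group as a first step of its removal. In regulatory T cells, lack of methylation at an enhancer of Foxp3 is known to keep that gene stably expressed, and Tet2 and Tet3 are known to be needed for it.

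Promoter windows of the 7 genes were taken from RefSeq (GRCm38.p6, 250 bases before to 50 after an annotated start), a build other than the one the reads were mapped to. They are shown for the maintenance pair and for Tet1 and Tet2, the members on which the results below turn. All 7 genes matched, with 12 windows, and for a gene with several the window with the most CpG is given. The expression files do not tell which start was used. In the windows of the maintenance pair, capitals mark CCAAT boxes and 4 letter strings bound by E2F factors, which drive S phase genes (TTTCCCGC, TTTCGCGC, TTTGCCGC and TTTGGCGC), both searched on both strands. The Dnmt1 window lies at chr9:20952574-20952873 on the minus strand and that of Uhrf1 at chr17:56304063-56304362 on the plus strand.
Dnmt1: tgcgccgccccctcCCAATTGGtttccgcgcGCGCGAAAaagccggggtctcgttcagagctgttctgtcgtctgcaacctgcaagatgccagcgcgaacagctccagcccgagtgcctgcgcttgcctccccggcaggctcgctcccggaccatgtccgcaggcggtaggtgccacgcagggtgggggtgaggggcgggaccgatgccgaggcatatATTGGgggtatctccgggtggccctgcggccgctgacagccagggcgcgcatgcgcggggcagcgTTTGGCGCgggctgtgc
Uhrf1: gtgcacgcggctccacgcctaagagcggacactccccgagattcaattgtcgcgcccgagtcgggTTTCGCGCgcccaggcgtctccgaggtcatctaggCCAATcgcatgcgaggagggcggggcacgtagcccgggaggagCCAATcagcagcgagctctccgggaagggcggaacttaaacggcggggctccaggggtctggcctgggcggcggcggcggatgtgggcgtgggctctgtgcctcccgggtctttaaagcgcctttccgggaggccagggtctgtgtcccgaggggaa

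The Dnmt1 window held 2 E2F strings, at positions -219 and 33 from the start, and the Uhrf1 window held 1, at position -185. Such a string is found in 2.26% of all 32851 RefSeq windows and in 2 of the 12 member windows, which are these. CCAAT boxes were found 3 times in the Dnmt1 window, of which 2 overlap on opposite strands, and 2 times in the Uhrf1 window, against at least 1 in 37.4% of all windows. In the windows of Tet1 (chr10:62887275-62887574) and Tet2 (chr3:133544341-133544640), both on the minus strand, capitals mark CpG.
Tet1: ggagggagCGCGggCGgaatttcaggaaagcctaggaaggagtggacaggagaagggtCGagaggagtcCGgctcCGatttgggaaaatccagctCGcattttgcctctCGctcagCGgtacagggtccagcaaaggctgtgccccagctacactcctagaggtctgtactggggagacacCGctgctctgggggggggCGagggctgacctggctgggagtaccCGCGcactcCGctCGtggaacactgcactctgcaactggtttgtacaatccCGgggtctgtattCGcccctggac
Tet2: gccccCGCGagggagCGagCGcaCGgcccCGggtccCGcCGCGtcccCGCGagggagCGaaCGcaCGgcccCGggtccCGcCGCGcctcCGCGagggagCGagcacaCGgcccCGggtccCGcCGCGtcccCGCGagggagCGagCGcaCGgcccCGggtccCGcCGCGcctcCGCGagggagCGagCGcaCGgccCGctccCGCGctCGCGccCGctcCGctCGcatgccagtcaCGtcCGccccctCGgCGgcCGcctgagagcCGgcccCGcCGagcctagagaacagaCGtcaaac

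The Tet2 window held 57 CpG, more than 99.8% of all windows, and the Tet1 window held 17, more than 68.6%. The best windows of Dnmt1 and Uhrf1 held 33 each, that of Dnmt3a 47, Dnmt3b 30 and Tet3 22, against a median of 7 over all windows. None of the 4 E2F strings and no CCAAT box was in these letters for Tet1 or Tet2.

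The libraries differed in depth and base composition. Total counts were 10183626 to 20373649 in KO and 23263741 to 27562046 in WT, so each KO library was shallower than each WT library. In KO replicate 1, deviations of log2 CPM (counts scaled to a common library size with TMM) from the mean of all libraries correlated across genes with the GC content of their transcripts at r = 0.818, against -0.511 to -0.0774 in the other libraries. Srsf1, the targeted gene, was at 438, 812 and 787 CPM in KO replicates 1, 2 and 3, and at 1214, 1230 and 755 CPM in WT replicates 1, 2 and 3. The library labelled WT replicate 3 thus lay below KO replicates 2 and 3. For the CD8 coreceptor chain gene Cd8b1, that library was at 87.2 CPM. The other WT libraries were at 75.3 and 93.3 CPM, and KO at 12.3 to 14.1 CPM. Counts of Srsf1 are per gene, and whether they fall on exons outside the deleted part was not tested. Of all 11772 genes, edgeR's quasi-likelihood test called 2 (0.017%) at an adjusted p under 0.05, and the DESeq2 Wald test called 1.1%. Foxp3 (357 to 464 CPM in KO, 104 to 160 CPM in WT), Il2ra, Cd4 and Cd3e were present in every library.

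Per unit of transcript length, as FPKM gives it, the 7 genes spanned a wide range of levels, led by the maintenance pair. Over all 6 libraries, Dnmt1 averaged 90.2 ± 14.9 FPKM and Uhrf1 83.2 ± 16.4 FPKM (SD, n = 6), above 92.8% and 92.1% of the genes tested. Dnmt3a followed at 13.5 ± 3.43 FPKM. Tet3 stood at 7.05 ± 1.77, Tet2 at 6.29 ± 1.39 and Dnmt3b at 4.33 ± 1.06 FPKM. Tet1 came last at 0.463 ± 0.200 FPKM, above 9.02% of the genes tested.

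The order held in all 6 libraries between Uhrf1 and Dnmt3a, where the lowest Uhrf1 value was 3.38 times the highest Dnmt3a value, and between Dnmt3b and Tet1, where the corresponding ratio was 3.81. Dnmt3a was above Tet3 in all 6 libraries as well, although their ranges over the libraries overlapped. Neighbours that did not differ beyond their spread were Dnmt1 and Uhrf1 (Dnmt1 above in 5 of 6 libraries), Tet3 and Tet2 (Tet3 above in 3 of 6), and Tet2 and Dnmt3b (Tet2 above in 4 of 6). Tet1 varied most between libraries, by 3.33 times from the lowest to the highest FPKM, against 1.56 times for Dnmt1 and 1.59 to 1.94 times for the other 5.

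**Figure D1:**
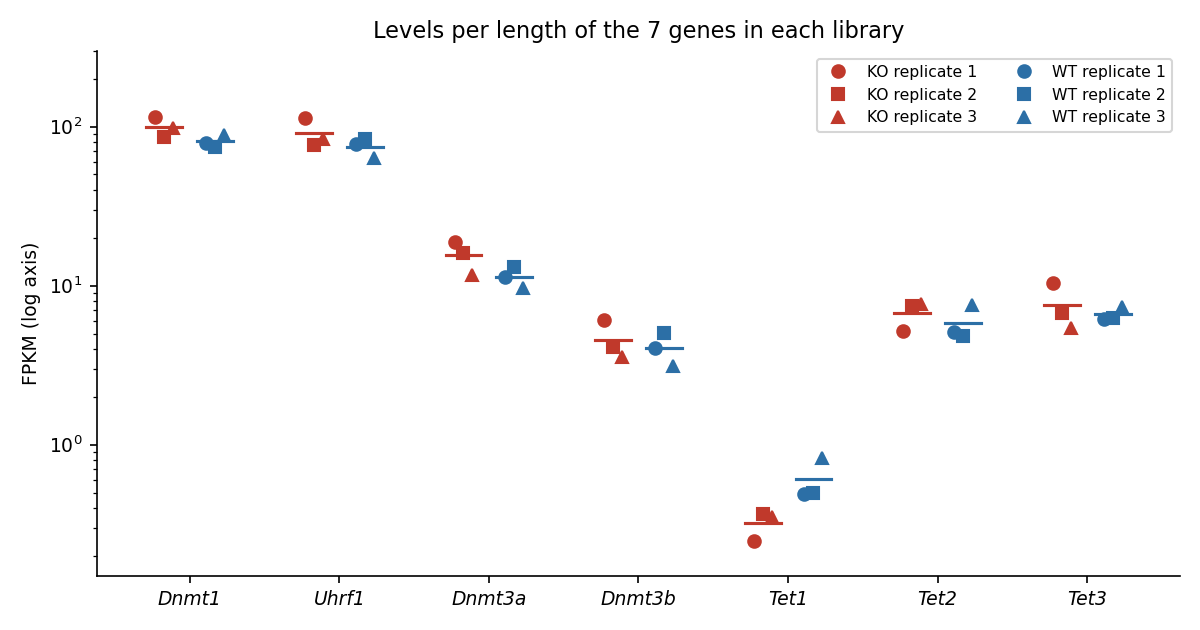
FPKM (log axis) of the 7 genes in each of the 3 KO libraries (red, left) and 3 WT libraries (blue, right), with bars at the group means. Dnmt1 and Uhrf1 lie above 60 FPKM in every library, and Tet1 lies below 1 FPKM, with all KO libraries under all WT libraries.

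No member passed the test across all genes, and Tet1 had the largest difference of the 7, lower in KO. Of the 7 genes, 0 had an edgeR adjusted p under 0.05, against 0.017% of all genes, and 0 were called by DESeq2. One, Tet1, had an unadjusted edgeR p under 0.05, against 7.51% of all genes in either direction and 2.76% lower in KO. That p of 0.0280 was 0.111 in edgeR without the library labelled WT replicate 3. It was 0.0835 when KO replicate 1 was left out too. The KO and WT libraries did not overlap for 2 of 7 members, Tet1 (KO below WT) and Dnmt1 (KO above WT), against 15.7% of all genes. The other 6 members had log2 fold changes between +0.09 and +0.42, and 0 of them had an unadjusted edgeR p under 0.05, against 4.75% of all genes for higher values in KO. In bulk RNA, fewer cells of a type and less RNA per cell cannot be told apart.

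**Figure D2:**
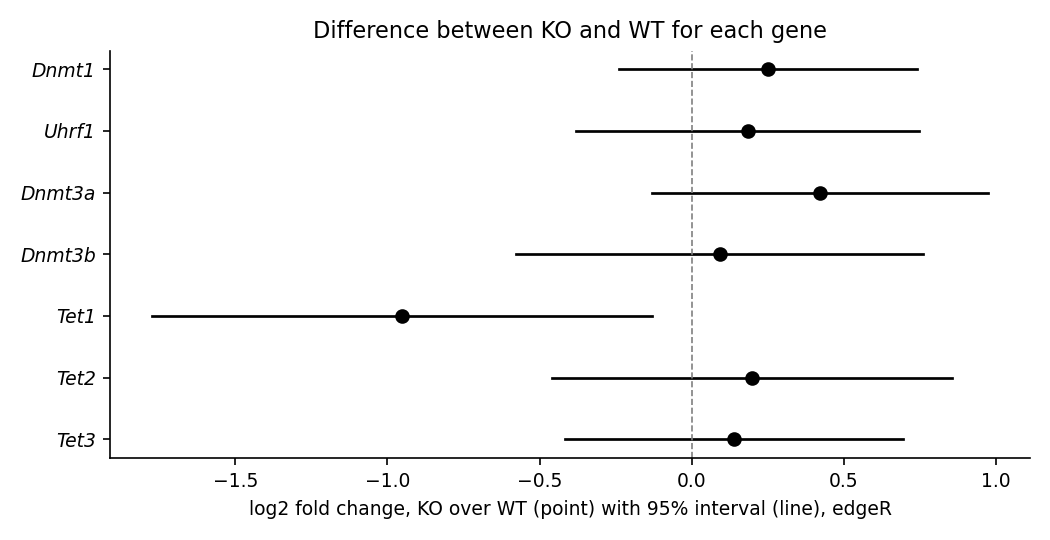
log2 fold change of KO over WT for each gene (points) with its 95% interval (lines), from edgeR's quasi-likelihood fit. The interval of Tet1, -1.77 to -0.13, lies below 0, and the intervals of the other 6 genes span 0.

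Of the maintenance pair, Dnmt1 was measured at 734, 628 and 727 CPM in KO replicates 1, 2 and 3, against 605, 533 and 618 CPM in WT replicates 1, 2 and 3. Every KO library was above every WT library, with KO replicate 2 close to the library labelled WT replicate 3. The means were 696 ± 59.3 CPM in KO and 585 ± 45.9 CPM in WT (SD, n = 3 each). The log2 fold change was +0.25 (SE 0.22, 95% interval -0.24 to 0.74, edgeR adjusted p = 0.770). That interval leaves room for a ratio of KO to WT from 0.847 to 1.67. In FPKM the groups overlapped, at 116, 85.8 and 97.8 in KO and 79.3, 74.0 and 88.7 in WT. With offsets for GC content and length, the log2 fold change of Dnmt1 was +0.05 (SE 0.18).

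Uhrf1 stood at 382, 267 and 286 CPM in KO replicates 1, 2 and 3, and at 281, 314 and 228 CPM in WT replicates 1, 2 and 3. The groups overlapped, and KO replicate 1 was the highest of the 6 libraries. The log2 fold change was +0.18 (SE 0.25, 95% interval -0.38 to 0.75, edgeR adjusted p = 0.840). Its sign turned without the library labelled WT replicate 3 and KO replicate 1 together (-0.09), and it was 0.00496 with offsets for GC content and length. The ratio of Dnmt1 to Uhrf1 FPKM was 1.02, 1.11 and 1.17 in KO and 1.02, 0.888 and 1.39 in WT, with overlapping groups. The 2 deposited tables gave somewhat different values for Uhrf1: the log2 ratio of its CPM to its FPKM, relative to the median gene, varied by 0.21 between libraries, more than for 83.6% of genes.

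Of the enzymes that methylate new sites, Dnmt3a was measured at 220, 208 and 157 CPM in KO replicates 1, 2 and 3, and at 152, 166 and 119 CPM in WT replicates 1, 2 and 3. KO replicates 1 and 2 were above all WT libraries, and KO replicate 3 was below WT replicate 2. The log2 fold change was +0.42 (SE 0.24, 95% interval -0.13 to 0.97, edgeR adjusted p = 0.716), the largest positive value of the 7. It was +0.28 without the library labelled WT replicate 3, and +0.18 with offsets for GC content and length.

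Dnmt3b stood at 27.8, 21.7 and 19.1 CPM in KO replicates 1, 2 and 3, and at 22.7, 25.8 and 15.9 CPM in WT replicates 1, 2 and 3. The libraries of both groups were interspersed. Its log2 fold change of +0.09 (SE 0.29, edgeR adjusted p = 0.926) turned to -0.08 without KO replicate 1 and to -0.10 without the library labelled WT replicate 3. Dnmt3a was 3.13, 3.91 and 3.30 times Dnmt3b in FPKM in KO, and 2.79, 2.58 and 3.10 times in WT. The groups did not overlap, but 3.13 in KO replicate 1 lay next to 3.10 in the library labelled WT replicate 3. This pair was among 21 pairs of members examined, of which 7 had no overlap, and no test is given for it. Dnmt3l, a cofactor of de novo methylation in germ cells, was listed at 0 in every library. An antisense gene, Dnmt3aos, overlaps exons of Dnmt3a in the reference annotation and was listed at 0 in every library.

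Among the erasers, Tet1 counted 91, 95 and 70 reads in KO replicates 1, 2 and 3, and 223, 246 and 435 reads in WT replicates 1, 2 and 3. After scaling, these were 4.16, 7.17 and 7.02 CPM in KO and 10.1, 9.65 and 15.6 CPM in WT. All KO libraries were below all WT libraries, with KO replicate 1 the lowest and the library labelled WT replicate 3 the highest. Exact Poisson 95% intervals, which cover counting error only, were 5.80 to 8.76 CPM for KO replicate 2 and 5.47 to 8.87 CPM for KO replicate 3, against 8.48 to 10.9 CPM for WT replicate 2, so these intervals overlap narrowly.

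The log2 fold change of Tet1 was -0.95 (SE 0.36, 95% interval -1.77 to -0.13), a ratio of KO to WT of 0.517. The edgeR adjusted p over all genes was 0.639, so the difference did not pass. An exact two-sided permutation test of log2(FPKM + 1) gave p = 0.1, the smallest value that 3 against 3 libraries allow. The size rests in part on the 2 libraries that stood apart: the log2 fold change was -0.73 without KO replicate 1, -0.70 without the library labelled WT replicate 3, and -0.45 (SE 0.23) without both. It was -0.94 (SE 0.24, edgeR adjusted p = 0.167) with offsets for GC content and length, and the Tet1 transcript, with 43.7% GC, has more GC than 17.6% of the genes tested.

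Tet2 stood at 55.9, 93.2 and 98.5 CPM in KO replicates 1, 2 and 3, and at 66.4, 58.9 and 90.2 CPM in WT replicates 1, 2 and 3. KO replicate 1 was the lowest of all 6 libraries, while KO replicates 2 and 3 were above all of WT. The log2 fold change was +0.20 (SE 0.29, 95% interval -0.46 to 0.86, edgeR adjusted p = 0.852). Without KO replicate 1 it was +0.41, and without the library labelled WT replicate 3 as well it was +0.63 (SE 0.14, edgeR adjusted p = 0.0909). An antisense gene, Gm42567, overlaps exons of Tet2 in the reference annotation, and the strand setting of the counting is not given in the sources used here.

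Tet3 stood at 139, 103 and 84.7 CPM in KO replicates 1, 2 and 3, and at 96.5, 93.7 and 106 CPM in WT replicates 1, 2 and 3. The WT libraries lay between the highest and the lowest KO library. The SD of log2 CPM was 0.36 in KO and 0.09 in WT. The log2 fold change of +0.14 (SE 0.24, edgeR adjusted p = 0.875) turned to -0.08 without KO replicate 1 and to -0.19 with offsets for GC content and length.

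The ratio of Tet2 to Tet1 varied less within each group than the level of either gene. In counts, which need no scaling between libraries for a ratio within one, Tet2 was 13.4, 13.0 and 14.0 times Tet1 in KO replicates 1, 2 and 3, and 6.59, 6.10 and 5.78 times in WT replicates 1, 2 and 3. The groups did not overlap, and the means were 13.5 ± 0.517 in KO and 6.16 ± 0.406 in WT (SD, n = 3 each), 2.19 times higher in KO. The exact 95% counting interval was 10.5 to 16.2 for KO replicate 2, the lowest in KO, and 5.72 to 7.62 for WT replicate 1, the highest in WT. Each interval is wider than the range of the ratios in its group, so the small SDs do not measure how precisely the ratio is known. The extremes for the level of Tet1, KO replicate 1 at the low end and the library labelled WT replicate 3 at the high end, had ratios of 13.4 and 5.78, close to the other libraries of their groups. With offsets for GC content and length the ratio was 12.3, 13.5 and 14.9 in KO, and 6.58, 5.92 and 5.86 in WT.

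This ratio was singled out after the values were seen, from 21 pairs of members, and no test is given for it. In FPKM, 7 of the 21 pairs had no overlap between the groups: all 6 pairs that include Tet1, and Dnmt3a over Dnmt3b. Separation of the groups is thus not particular to Tet2 as the partner of Tet1. The 6 pairs that include Tet1 all share its values and so are not independent of each other. Per length, Tet1 made up 1.56%, 2.52% and 2.62% of the summed Tet FPKM in KO, and 4.19%, 4.32% and 5.22% in WT. The summed Tet FPKM itself overlapped between the groups, at 15.9, 14.5 and 13.4 in KO and 11.8, 11.6 and 15.8 in WT. The summed FPKM of Dnmt1, Dnmt3a and Dnmt3b was 141, 106 and 113 in KO, above 94.7, 92.1 and 102 in WT, with KO replicate 1 the highest. KO replicate 2, at 106, was close to the library labelled WT replicate 3, at 102. Dnmt1, whose own FPKM overlapped between the groups, made up most of this sum.

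**Figure D3:**
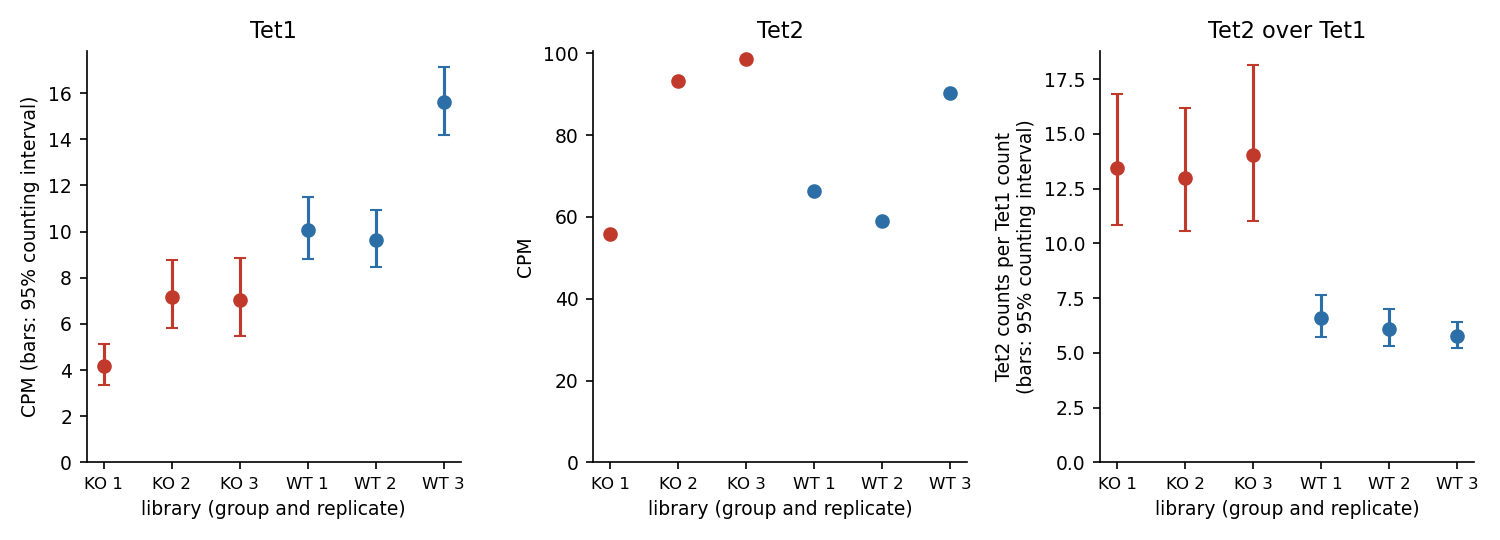
Tet1 in CPM (left), Tet2 in CPM (middle) and Tet2 counts per Tet1 count (right) in each KO library (red) and WT library (blue), with bars for 95% counting intervals on Tet1 and on the ratio. The ratio is 13.0 to 14.0 in KO and 5.78 to 6.59 in WT, while Tet2 overlaps between the groups.

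Markers of other cell types differed between the same libraries. The summed CPM of 6 CD8 T cell markers was 147 to 172 in KO and 271 to 396 in WT. Of the 6, 1, the coreceptor chain gene Cd8b1, was called lower by edgeR. Cd8a (log2 fold change -1.92, SE 0.29) was also below WT in every KO library. It did not pass in edgeR, while DESeq2 called it (adjusted p = 3.41e-06). Eomes went the other way (+0.85, SE 0.34), with overlap between the groups, and did not pass in edgeR. The remaining markers of this list overlapped between the groups. The 7 NK cell markers summed to 138 to 233 CPM in KO and 118 to 158 CPM in WT, with overlap, and Tbx21 and Nkg7, which T cells can also express, made up most of it. Of the others, Klrb1b averaged 2.45 CPM in KO and 0.481 CPM in WT, Klrb1c 1.55 and 0.389 CPM, and Ncr1 0.886 and 0.0702 CPM, each with all KO libraries above all WT libraries but at no more than 60 counts. Klrb1b and Klrb1c did not pass in edgeR, and Ncr1 was below the filter on low counts. Klra7, averaging 6.65 CPM in KO and 3.04 CPM in WT, overlapped between the groups, and Klra8 was listed at 0. Of all genes tested, 7.48% had every KO library above every WT library. The 7 B cell markers summed to 35.3 to 147 CPM in KO and 16.5 to 34.3 CPM in WT. Cd74 made up most of that sum, at 140, 71.2 and 34.0 CPM in KO and 31.2, 31.4 and 11.9 CPM in WT. Blk averaged 0.983 CPM in KO and 0.173 CPM in WT, at no more than 42 counts. Both genes were higher in every KO library than in every WT library, but neither passed in edgeR. Cd79b, the remaining B cell marker that was tested, went slightly the other way (-0.25, SE 0.63). It averaged 2.53 CPM in KO and 3.09 CPM in WT, with overlap between the groups. Neither Ms4a1 nor Cd79a, which mark these cells, exceeded 4 counts. The 10 macrophage and monocyte markers in the table summed to 10.3 to 16.0 CPM in KO and 2.17 to 6.39 CPM in WT. Most of it was Cd68, averaging 5.96 CPM in KO and 2.68 CPM in WT, and Fcer1g, averaging 6.27 and 1.03 CPM. Both were higher in every KO library than in every WT library. Neither passed in edgeR, while DESeq2 called Fcer1g (adjusted p = 1.2e-04). Csf1r and Lyz2 were listed at 0. Erythroid markers reached at most 2 counts. Their part in the differences of Tet1 and the other members was not tested.

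Across the 6 libraries the members did not vary as one group. Pearson's r of log2(CPM + 1), given as a description over 6 libraries that share the scaling and the depth differences above, was 0.902 between Uhrf1 and Dnmt3b, 0.772 between Dnmt3a and Dnmt3b and 0.741 between Uhrf1 and Dnmt3a. Tet1 ran against Dnmt3a (-0.900) and Uhrf1 (-0.839), and Tet2 against Dnmt3b (-0.839). Dnmt1 and Uhrf1, partners in maintenance, had r = 0.317, and Tet1 and Tet2 had 0.320. On the log2 CPM scale, KO replicate 1 lay +0.61 from the WT mean for Dnmt3a, +0.50 for Tet3, +0.49 for Uhrf1 and -1.47 for Tet1. That is the library whose deviations followed GC content at r = 0.818. Transcripts of Tet1 and Tet2 have 43.66% and 45.35% GC, against 51.95% to 53.95% for the other members. The part of GC content in the correlations between members was not tested.

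**Figure D4:**
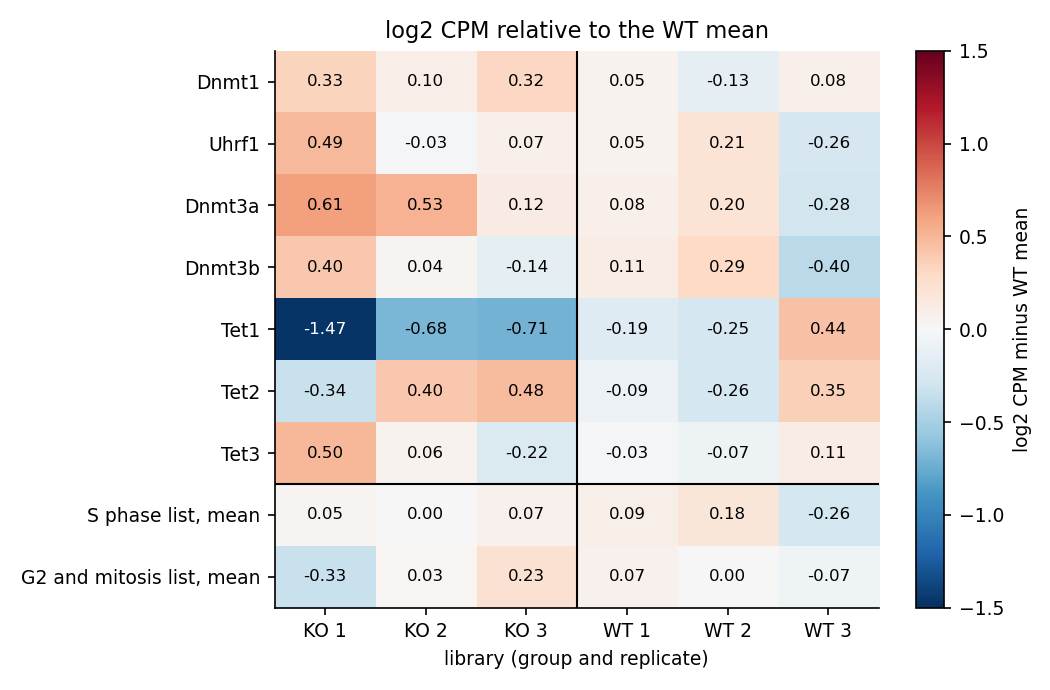
log2 CPM of each gene relative to its WT mean in each library, KO left and WT right, with the mean of the S phase and mitosis lists below. KO replicate 1 is the highest library for Dnmt1, Uhrf1, Dnmt3a, Dnmt3b and Tet3 and the lowest for Tet1 and Tet2, and Tet1 is the only row with all 3 KO libraries at -0.68 or lower.

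Among 8106 genes of at least 10 CPM on average, the patterns most like that of Dnmt3a over the 6 libraries were those of Egr2 (r = 0.997), Rgs16 (0.995) and Tnf (0.992). Those most like Tet1 were Gyg (0.996), Parn (0.996) and Gas2 (0.993), and those most like Tet2 were Nin (0.997), Cep120 (0.996) and Rbl2 (0.989). Uhrf1 was most like Mrpl12, Aimp2 and Myo19 (0.991 to 0.993), and Dnmt1 most like Slx4, Hnrnpul1 and Pcnt (0.976 to 0.983). Dnmt3b was most like Pdcd11, Jagn1 and Tmem185b (0.991 to 0.992), and Tet3 most like Rpl12, Desi1 and Adipor1 (0.983 to 0.985). The highest r over so many candidates was 0.983 or more for each of the 7 members.

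Partners of the maintenance pair showed no change that passed. Of 8 tested, 0 passed in either direction, 1 was above 0 (51.6% of all genes were), and the median log2 fold change was -0.17, against +0.02 over all genes, but -0.012 without KO replicate 1. Pcna, the sliding clamp of DNA replication, was at 369 ± 21.9 CPM in KO and 426 ± 81.9 CPM in WT. Usp7, a deubiquitinase that binds Dnmt1 and Uhrf1, was at 458 ± 184 CPM in KO and 535 ± 80.5 CPM in WT. Cdca7 and Cdca7l stood at -0.15 and -0.19 on the log2 scale. Hells, the chromatin remodeller that works with Cdca7, was at 97.0, 527 and 565 CPM in KO replicates 1, 2 and 3, and at 591, 504 and 327 CPM in WT replicates 1, 2 and 3, so that only KO replicate 1 was far below the rest.

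Cell cycle genes, with which Dnmt1 and Uhrf1 are known to be expressed, had no call in either list. Of 35 tested S phase genes 0 passed, 21 were above 0 and the median log2 fold change was +0.03 (-0.092 without the library labelled WT replicate 3). The leading members by p were E2f1 (+0.76, SE 0.42), Rfc4 (-0.47, SE 0.28), Mcm5 (+0.45, SE 0.34) and Mcm2 (+0.39, SE 0.30). E2f1 was at 43.0, 15.3 and 15.9 CPM in KO replicates 1, 2 and 3, and at 13.9, 14.2 and 15.7 CPM in WT replicates 1, 2 and 3. KO replicate 1 was likewise the highest library for Mcm5 (623 CPM, against 225 to 395 in the other 5) and Mcm2 (453 CPM, against 198 to 291). Of 20 G2 and mitosis genes 0 passed, 10 were above 0 and the median was 0.00932 (-0.14 without KO replicate 3), with Ccnb1 (-0.46), Plk1 (+0.39), Cdc20 (+0.51) and Mki67 (+0.52) leading. Mki67, the proliferation marker, was at 1813 ± 771 CPM in KO and 1269 ± 434 CPM in WT.

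Partners of the de novo enzymes had 0 of 4 tested genes passing, with Ehmt2 (+0.45, SE 0.39), Trim28 (+0.37), Ehmt1 (+0.05) and Setdb1 (-0.02). Ehmt2 was at 226 CPM in KO replicate 1 and Trim28 at 641 CPM, while the other KO libraries lay at 81.0 and 92.7 CPM for Ehmt2 and 313 and 275 CPM for Trim28, against 89.3 to 109 CPM and 257 to 384 CPM in WT. The median of the 4 genes, +0.21, turned to -0.053 without KO replicate 1 and to -0.070 with the offsets. Ehmt1, Ehmt2 and Setdb1 encode histone methyltransferases, and Trim28 a scaffold that binds Setdb1. Genes of the families that hold the readers of methylated DNA, not all of them readers, had 0 of 8 passing. Of these, 6 were above 0, with a median of +0.17 (+0.046 without KO replicate 3 and +0.051 with the offsets). Mbd1, a methyl-CpG binding protein, was at 70.2, 69.8 and 74.2 CPM in KO, above 57.6, 54.1 and 60.8 CPM in WT, but its log2 fold change of +0.31 (SE 0.20) had an edgeR adjusted p of 0.733. Mbd3 (+0.55), Mbd4 (-0.31) and Zbtb4 (+0.24) followed by p, and Mbd3 was at 155 CPM in KO replicate 1 against 53.3 to 71.7 CPM in the other 5 libraries. Genes that remove oxidised or deaminated bases had 0 of 10 passing and 7 above 0, with a median of +0.15, which turned to -0.083 with the offsets. Without KO replicate 1 the median was -0.13, but over 12 genes, as more passed the filter. The stress gene Gadd45b (+0.56), Gadd45a (+0.39) and the glycosylases Ung (+0.34) and Smug1 (-0.32) led. Tdg, the glycosylase that excises oxidised methylcytosine, had at most 19 counts in any library and was not tested.

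Among Tet partners and genes of 2-oxoglutarate metabolism, which supplies the cosubstrate of the Tet enzymes, 0 of 11 tested genes passed, 4 were above 0 and the median was -0.25, which was -0.10 without KO replicate 2. Idh1, the cytosolic isocitrate dehydrogenase that makes 2-oxoglutarate, was at 6.13, 8.30 and 14.6 CPM in KO, below 17.1, 15.3 and 31.4 CPM in WT. Its log2 fold change was -1.14 (SE 0.43, edgeR adjusted p = 0.639). Cxxc5, a CpG-binding protein known to limit Tet2, was at 1.74, 2.72 and 1.20 CPM in KO and 0.813, 0.981 and 0.718 CPM in WT (+1.17, SE 0.48, edgeR adjusted p = 0.651), at no more than 38 counts. Smarca4 stood at +0.43.

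Genes that supply S-adenosylmethionine, the methyl donor of the Dnmt enzymes, had 0 of 11 tested members passing, 4 above 0 and a median of -0.064, which was -0.28 without KO replicate 1 and -0.26 with the offsets. Mthfd2, a mitochondrial folate enzyme, was at 177, 164 and 214 CPM in KO, below 313, 285 and 277 CPM in WT (log2 fold change -0.66, SE 0.22, edgeR adjusted p = 0.573). Mat2b (-0.27) and Mtrr (-0.28) were also below WT in every KO library, and the amino acid transporter Slc7a5 stood at -0.37. The groups did not overlap, with KO below, for these 3 of 11 members (Mthfd2, Mat2b and Mtrr), against 8.18% of all genes.

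Genes whose expression is tied to DNA methylation were examined as well. Of 6 genes with regions demethylated in regulatory T cells, 0 passed in edgeR and 1, Foxp3, was called by DESeq2 (adjusted p = 1.59e-06). Foxp3 (+1.68, SE 0.25), Ikzf2 (+0.91, SE 0.32) and Ikzf4 (+0.58, SE 0.21) were above WT in every KO library, against 7.48% of all genes, with edgeR adjusted p of 0.197, 0.593 and 0.631. Il2ra (-0.09), Ctla4 (-0.79) and Tnfrsf18 (+0.30) overlapped between the groups. Of 15 germline genes known to be silenced by promoter methylation, 7 had no count in any library and none was tested. Their summed level was 0.183 to 1.003 CPM in KO and 0.784 to 1.58 CPM in WT, and the highest count was 18, for Ddx4. Of 10 tested imprinted genes 0 passed and 6 were above 0, with a median of +0.21. Without KO replicate 3 the median was -0.26, but over 12 genes, as more passed the filter. H19 (-1.41, SE 0.56), Kcnq1ot1 (+0.95, SE 0.38), Grb10 (-0.95) and Igf2r (+0.24) led by p, and their groups overlapped.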

How the data were processed

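Stranded mRNA libraries of 3 KO and 3 WT mice were sequenced as 75-bp single ends and went through the VIPER pipeline, which the series' design text names. The aligner was STAR 2.4.2a, per the file headers, and the build mm9, per the submitters' processing notes. The tool that counted reads, its strand setting and its annotation are not given here. Deposited by the authors were whole-number counts for 24982 symbols, not normalized, and FPKM for 24917 symbols, whose unit the header does not name and which was inferred from the values. Dates replace symbols in 26 entries (0.271% of counts).

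The test was edgeR 4.0.16 in R 4.3.3: TMM scaling, filterByExpr (minimum count 10), quasi-likelihood F, and Benjamini-Hochberg adjustment over all tested genes at 0.05. Standard errors come from F. Alternatives used DESeq2 1.42.0 and limma 3.58.1. Besides the members, genes were named by rule: up to 4 of each list with the smallest p, all genes with demethylated regions, defining cell type markers, and the 3 genes most correlated with each member. A few listed genes are not reported here. Dnmt3l, Hells, Tdg, Dnmt3aos, Gm42567, Ncr1, Nkg7 and Ddx4 were named after their values were seen. So were the markers Cd8a, Eomes, Klra7, Klra8, Cd74, Blk, Cd79b, Cd68 and Fcer1g. The members and lists were chosen with earlier results of these data known. Chi-square per degree of freedom between libraries was at least 20.6, so none was a repeat of another. A count of 3 corresponds to 0.109 to 0.295 CPM. On simulated data for KO against WT with 11649 genes, 10% of 2-fold and 71% of 4-fold changes were recovered, with 4 false calls. GENCODE M21 transcripts gave GC content for 99.17% of tested genes.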

Additional observations from a re-analysis of the deposited data

How the results depend on the processing

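No member was called under any of the 22 alternatives run (20 for Tet1, which a filter of 1 FPKM removes). Dnmt1, Dnmt3a, Tet1 and Tet2 kept their direction in all of theirs, with log2 fold changes of 0.046 to 0.32, 0.18 to 0.53, -1.09 to -0.45 (on counts) and 0.041 to 0.63. On log2(FPKM + 1), where the pseudocount exceeds its level, Tet1 differed by -0.28, and with a pseudocount of 0.01 by -0.87. The lowest adjusted p of any member was 0.0909, for Tet2. Uhrf1 turned to -0.047 with voom quality weights and to -0.087 without both KO replicate 1 and the library that is labelled WT replicate 3. Under these same settings Dnmt3b turned to -0.15 and -0.23, and it turned to -0.088 with GC and length offsets, which were added after the data were seen. Tet3 turned to -0.019 with quality weights and -0.19 with the offsets. With 1 library left out, Dnmt3b ran from -0.098 to 0.24 and Tet3 from -0.077 to 0.27, below 0 without KO replicate 1 for both and without that WT-labelled library for Dnmt3b. In log2(FPKM + 1) these ranges were -0.055 to 0.26 and -0.11 to 0.31. The cause was not tested.

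The 2 genes called overall became 6 without a filter, 129 with DESeq2, 1 with voom, 229 with quality weights, 15 with the offsets, 80 without both libraries, 0 with sex as a covariate (695 at an unadjusted p under 0.05), 0 in unfiltered FPKM (1040) and 0 to 3 with 1 library left out. Genes with demethylated regions had 1 call with DESeq2, 2 with quality weights and 1 without both libraries, while S-adenosylmethionine genes had 2 and imprinted genes 1 with quality weights. The sex used as a covariate was inferred from the summed CPM of Y-linked genes in these same libraries. KO replicate 2 (319 CPM) and WT replicate 2 (300 CPM) were taken as male. All other libraries had at most 0.0982 CPM, so each group mixed the sexes. Whether replicate numbers pair the samples was not settled. Same-numbered libraries deviated together at r = -0.361, 0.145 and 0.138, within the -0.375 to 0.324 of differently numbered ones. With 3 libraries per group, these values cannot exclude pairing, and both libraries taken as male were replicate 2. The replicate block moved the calls to 1. Depth limits Tet1, with 70 to 435 counts.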
